A study of Mus musculus with 6 samples.

Results

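The genes described here are the ATP-binding cassette (ABC) genes of the mouse other than the best-known sterol and bile exporters. They were chosen by symbol, as all genes named Abca to Abcg with a number and, where present, a final a or b, with Abca1, Abcg5, Abcg8, Abcc2 and Abcc3 left out. This gave 43 of the 19938 genes measured by a probe set with 1 gene symbol. The rule used no measured value. Abcb4, Abcb11 and Abcg1, which carry phospholipid, bile salts and sterols, stay among the 43 by the rule. RNA came from epithelial cells isolated from small intestine of E18.5 mouse embryos, from controls (3 arrays) and from double conditional knockouts of Gata4 and Gata6, labelled Gata4Gata6 cKO (3 arrays). Both targets encode transcription factors of gut endoderm. The labels do not name the Cre driver, the deleted exons or the genotype of the controls. Nor do they say whether each array held RNA of a separate animal, so the p-values measure the spread between these arrays, which may be technical.

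ABC proteins bind and split ATP. Most use that energy to move a substrate across a membrane, and the symbols group them by sequence into subfamilies. Members of subfamilies B, C and G at the surface of enterocytes, the absorptive cells of the gut, pump drugs, plant compounds and conjugates back into the lumen or into blood. Other B and D members sit in mitochondria, peroxisomes or lysosomes, A members mostly move lipids, and the E and F proteins have no membrane part and work in translation. A level below is the deposited log2 value of a gene's probe set on 1 array. A change is the mean of the arrays labelled cKO minus the mean of the control arrays on the log2 scale, given ± SE with n = 3 arrays per group. A change passed the test where limma's p, adjusted by Benjamini-Hochberg over all 19938 genes, was under 0.05. Levels of different genes are not ranked against each other, because probe sets differ in brightness. In RNA of many cells, fewer cells of a type and less RNA per cell cannot be told apart.

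The labels were checked first. Neither targeted gene fell: Gata4 stood at 10.93 to 10.96 on the control arrays and 11.34 to 11.51 on the others, and Gata6 at 12.23 to 12.28 and 12.69 to 12.72. Both genes rose (Gata4 by 0.47 ± 0.075, adjusted p = 0.0101, and Gata6 by 0.45 ± 0.065, adjusted p = 0.0067), though neither passed without control 3 and cKO 2 (0.0646 and 0.0503). Where their probes lie relative to the deleted parts is not stated, so they do not check the labels, and each direction below rests on the labels alone. The epithelial list (Epcam, Cdh1, Vil1, Cdx2 and others, 10 of 10 measured) averaged 11.90, 11.91 and 11.91 on controls 1 to 3, and 12.16, 12.01 and 12.15 on cKO 1 to 3. Every cKO array lay above every control, and 3 of the 10 genes rose (5.52% of all genes did), Krt19 the most (by 0.61). The hepatocyte list (10 of 10 measured, none at 0) averaged 12.68 on cKO 2, while cKO 1 and cKO 3 had 7.65 and 7.74 and controls 1 to 3 had 9.24, 7.52 and 10.81. The erythroid list (6 of 10 measured, none at 0) was also highest on cKO 2, at 11.21, with 7.18 and 7.20 on cKO 1 and cKO 3. On controls 1 to 3 it averaged 9.03, 7.37 and 9.06, so control 1 was about as high as control 3. cKO 2 also had the highest mean of the immune list (9.52) and of the endothelial list (8.62), although the immune gene Csf1r, named after its values were seen, fell (−2.22, adjusted p = 0.0148). The mesenchymal list (10 of 10 measured, none at 0) averaged 8.32, 7.90 and 8.08 on controls 1 to 3, and 9.21, 8.97 and 8.26 on cKO 1 to 3. Under limma 0 of its genes passed, and 6 were above every control on all cKO arrays (14.3% of all genes were). The other way went 1 gene, Pdgfra (−0.55), below every control on all cKO arrays (18.3% of all genes were). In either direction, 7 had an unadjusted p under 0.05 (26.6%). Results that move with these lists are given beside them. Further lists are given only here. The exocrine pancreatic list (7 of 8 measured) averaged 10.46, 8.81 and 7.41 on controls 1 to 3, and 10.25, 9.94 and 9.19 on cKO 1 to 3. No covariate was made of it. The enteric neural list (6 of 8 measured) averaged 8.46, 8.38 and 8.55, and 8.14, 8.06 and 7.92. In it 1 gene passed, Ret (−1.40, adjusted p = 0.00639). The calls of members and related genes were also made without control 3 and cKO 2, the arrays of each group with the most hepatocyte signal.

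Of the 43 ABC genes, 5 rose and 1 fell. The rises were Abcb1a, Abcb1b, Abcc1, Abcc4 and Abcb6, and the fall was Abcb11. In all, 14% of the members passed, against 12.9% of all genes tested, so the share that changed was close to the background. An unadjusted p under 0.05 was reached by 13 members, where 26.6% of all genes reached one. The change was above 0 for 25 members, where 46.8% of all genes lay above 0. Rises made up 11.6% of the members and 5.52% of all genes, and falls 2.33% and 7.42%. The median change of the members was 0.04 and that of all genes −0.01. The groups did not overlap for 14 members, or 32.6%, which is the background share as well (32.6% of all genes). In 8 of these 14 the cKO arrays were higher (14.3% of all genes) and in 6 lower (18.3%), and 8 of the 14 did not pass the test. With 1 array left out the rises numbered 3 to 5 and the falls 0 to 2. The rises numbered 3 without any 1 control array, and with control 3 and cKO 2 both left out only Abcb1a (higher) and Abcb11 (lower) passed. In that last fit Abcb1b, Abcb6, Abcc1 and Abcc4 lost their calls, with changes of 0.795, 0.55, 0.495 and 0.545. Fewer of all genes passed with fewer arrays as well. The share was 7.43% to 11.4% with 1 array left out, and 7.95% without control 3 and cKO 2.

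**Figure D1:**
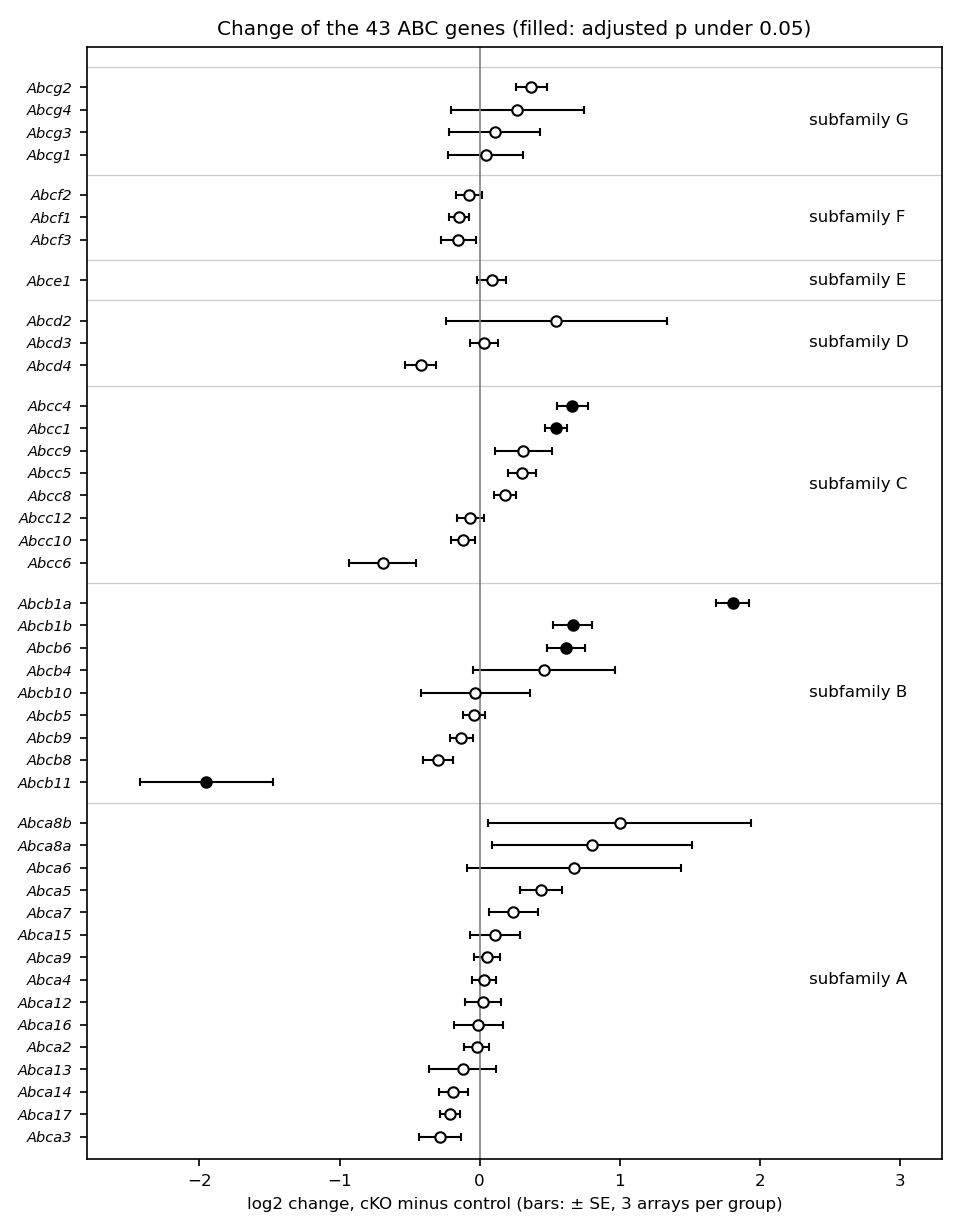
Log2 change (arrays labelled cKO minus control, x axis) of each of the 43 ABC genes by subfamily, with bars for ± SE from 3 arrays per group; filled points passed at an adjusted p under 0.05. Abcb1a at 1.81 lies farthest to the right and Abcb11 at −1.95 farthest to the left, and the bars of Abca8b, Abcd2, Abca6 and Abca8a are the widest.

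Abcb1a showed the largest rise. It encodes P-glycoprotein, the broad drug efflux pump that sits in the brush border of enterocytes and in the endothelium of brain capillaries. Its level was 8.81, 8.76 and 8.74 on controls 1 to 3, and 10.83, 10.43 and 10.47 on cKO 1 to 3. Every cKO array lay above every control array, and the groups were far apart compared with the spread inside each. The group means were 8.77 ± 0.036 and 10.58 ± 0.22 (SD, n = 3), a change of 1.81 ± 0.12, or 3.5-fold (95% confidence interval of the log2 change 1.52 to 2.09, adjusted p = 0.000438 by limma). The change was 1.68 to 1.88 with 1 array left out, and passed in all 6 of those fits (adjusted p up to 0.00477). It was 1.86 without control 3 and cKO 2 (adjusted p = 0.00444), and 1.81 with a covariate made of the mean hepatocyte and erythroid level. The endothelial list, markers of another cell type that holds P-glycoprotein, averaged 7.53, 7.45 and 8.07 on the controls and 7.35, 8.62 and 7.03 on the cKO arrays. Under limma 0 of its 10 genes passed (12.9% of all genes did), and none had an unadjusted p under 0.05 (26.6%). The epithelial list was above all controls on every cKO array, and the mesenchymal list on cKO 1 and cKO 2. The part of these cell types in the rise of Abcb1a was not tested.

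The sequences just upstream of the annotated starts are shown for Abcb1a and its neighbour Abcb1b, which both rose, and for Abcb11, the member that fell, because GATA4 and GATA6 bind GATA motifs. Each is the 250 bases before the RefSeq start in GRCm38.p6, read 5′ to 3′ on the gene's strand, with capitals marking GATA hexamers on either strand. The hexamers searched were AGATAA, its variant with a final G, which is AGATAG, the form with a first T, which is TGATAA, and the form with both, which is TGATAG. They cover chr5:8566841-8567090 (plus strand), chr5:8797897-8798146 (plus strand) and chr2:69342617-69342866 (minus strand).
Abcb1a: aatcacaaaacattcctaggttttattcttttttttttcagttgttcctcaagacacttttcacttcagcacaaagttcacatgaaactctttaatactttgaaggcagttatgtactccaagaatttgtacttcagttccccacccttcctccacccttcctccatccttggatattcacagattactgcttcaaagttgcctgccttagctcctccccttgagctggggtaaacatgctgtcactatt
Abcb1b: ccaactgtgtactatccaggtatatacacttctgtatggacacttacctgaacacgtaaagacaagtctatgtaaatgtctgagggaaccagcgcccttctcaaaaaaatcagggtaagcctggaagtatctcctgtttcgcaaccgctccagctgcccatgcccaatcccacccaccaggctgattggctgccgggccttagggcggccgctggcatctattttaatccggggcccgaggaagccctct
Abcb11: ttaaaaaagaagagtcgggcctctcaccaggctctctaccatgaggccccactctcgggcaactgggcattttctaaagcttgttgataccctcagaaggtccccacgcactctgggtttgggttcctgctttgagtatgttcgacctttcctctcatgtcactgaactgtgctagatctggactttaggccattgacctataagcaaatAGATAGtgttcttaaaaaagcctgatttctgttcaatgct
The Abcb11 stretch holds 1 hexamer, AGATAG, 40 bases before the start. The Abcb1a and Abcb1b stretches hold 0, though TGATAG occurs on the opposite strand 7 bases after the Abcb1a start. Over windows of 300 bases, which run to 50 after the start, 9 of the 34 members with a window had a hexamer, in 22.5% of their 40 windows, against 29.8% of all 32851 windows. A match describes the letters only, and these arrays measured no binding.

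Abcb1b, which with Abcb1a makes up the P-glycoprotein of mice and is its neighbour on the same chromosome, rose less. Its levels were 5.54, 5.81 and 5.79 on the controls, and 6.64, 6.19 and 6.30 on the cKO arrays. The groups did not overlap, and cKO 1 was highest, as for Abcb1a. The change was 0.66 ± 0.14, or 1.58-fold (adjusted p = 0.0286). This call was lost without control 1 (adjusted p = 0.0893), control 2 (0.0724), control 3 (0.0768) or cKO 3 (0.0702), and at 0.0551 without control 3 and cKO 2. The change of Abcb1a exceeded that of Abcb1b by 1.14. The within-array difference between their values, whose size also holds the brightness of the probe sets and which is read only for its shift between groups, was 3.06 ± 0.185 on the control arrays and 4.20 ± 0.036 on the cKO arrays (SD, n = 3; two-sided exact permutation p = 0.1, the smallest that 3 against 3 arrays allow). The genes are close copies, and whether a probe of one also binds the other's RNA is not stated, so the separate changes are uncertain. Abcb4, the next gene along, is described below.

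Subfamily C, which holds the multidrug resistance proteins and other members, had 2 rises among 8 members (5.52% of all genes rose) and 0 falls (7.42% fell). Abcc1 exports glutathione conjugates and leukotriene C4, mostly across the basolateral membrane. Its levels were 7.83, 7.68 and 7.68 on the controls, and 8.22, 8.32 and 8.28 on the cKO arrays. Both groups were tight and did not overlap. The change was 0.54 ± 0.078, or 1.46-fold (adjusted p = 0.00663), and it passed in each of the 6 fits with 1 array left out (adjusted p up to 0.0353), but not without control 3 and cKO 2 together (0.50, adjusted p = 0.0589).

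Abcc4 exports cyclic nucleotides, prostaglandins and sulfated conjugates. It stood at 7.33, 7.54 and 7.36 on the controls, and at 8.04, 8.25 and 7.92 on the cKO arrays, with no overlap. The change was 0.66 ± 0.11, or 1.58-fold (adjusted p = 0.0122). The call was lost without control 3 (adjusted p = 0.0537) and without control 3 and cKO 2 (0.0640). Abcc5, a further exporter of cyclic nucleotides, was also above all controls on every cKO array, at 7.96, 8.22 and 8.0 against 7.70, 7.69 and 7.88, but its change of 0.30 ± 0.10 did not pass (adjusted p = 0.114). Abcc10, a lysosomal and basolateral drug pump, had a change of −0.12 ± 0.087 (adjusted p = 0.462).

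Abcg2, the breast cancer resistance protein of the enterocyte brush border, pumps urate, porphyrins and many drugs into the lumen. Its levels were 10.56, 10.60 and 10.74 on the controls, and 11.20, 10.96 and 10.85 on the cKO arrays. The groups did not overlap, with cKO 1 highest, but the change of 0.37 ± 0.11 did not pass (95% confidence interval 0.10 to 0.64, adjusted p = 0.0853). Among the alternatives it passed only with genes under the median level left out (adjusted p = 0.0442) and with a trended and robust eBayes (0.0478). Of 7 members listed as exporters of drugs and conjugates at the plasma membrane (Abcb1a, Abcb1b, Abcc1, Abcc4, Abcc5, Abcc10 and Abcg2), 4 rose (5.52% of all genes did) and 0 fell (7.42%). In 6 every cKO array was above every control, as in 14.3% of all genes. The median change was 0.54 against −0.01 for all genes. These values depend on the list, which was chosen with earlier results of these data known. It leaves out the exporter Abcc6 (−0.69, adjusted p = 0.123). Abcc2 (−0.56, adjusted p = 0.0603) and Abcc3 (0.02) are left out by the rule. Rises among the 7 numbered 2 without control 3 (Abcb1a and Abcc1) and 1 without control 3 and cKO 2 (Abcb1a). In the other 5 fits with 1 array left out they numbered 3 or 4. The epithelial list was higher on all 3 cKO arrays as well, and 6 of the 10 mesenchymal genes were too, while 1, Pdgfra, was lower on all 3. The part of epithelial and mesenchymal cells in these rises was not tested.

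**Figure D2:**
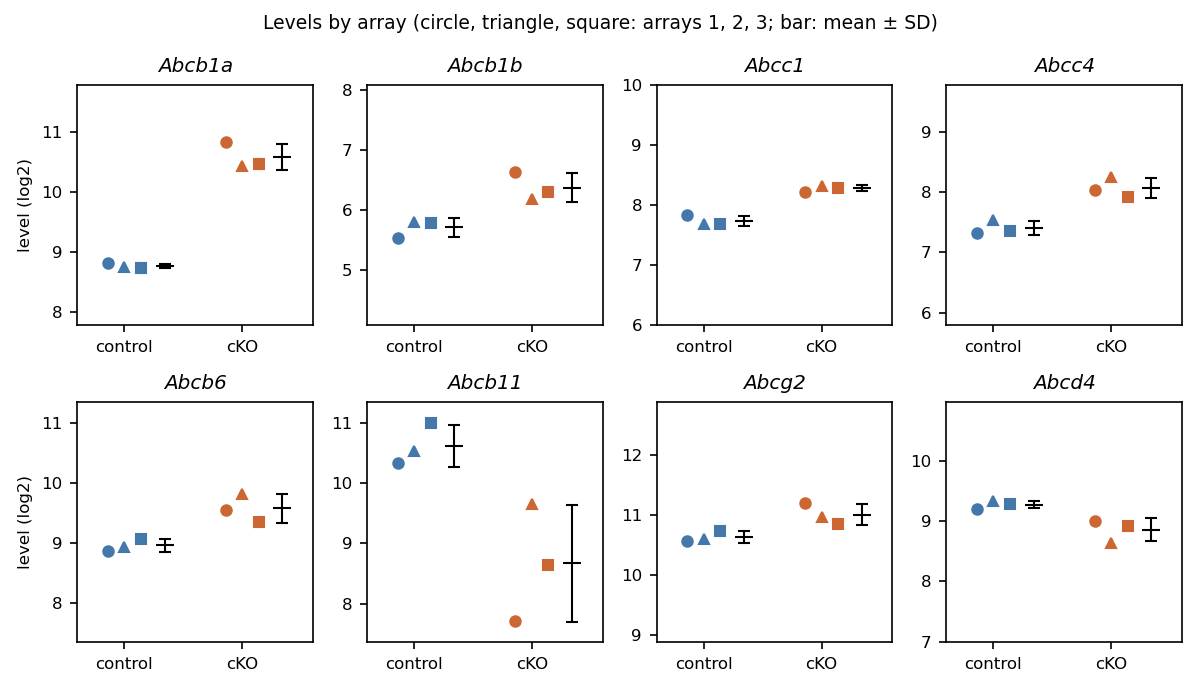
Log2 level (y axis, each panel spanning 4 log2 units) of 8 ABC genes on the control and cKO arrays; points are single arrays (circle, triangle and square for arrays 1, 2 and 3), and the bars beside them show the mean ± SD. No control and cKO points overlap in any panel, Abcb1a is separated by far more than its spread, and the cKO points of Abcb11 run from 7.71 to 9.66.

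Abcb11 showed the only fall that passed and the largest spread among the members that passed. It encodes the bile salt export pump, known mainly from the canalicular membrane of hepatocytes. Its levels were 10.33, 10.53 and 11 on the controls, and 7.71, 9.66 and 8.64 on the cKO arrays. The lowest control lay above the highest cKO array, cKO 2. The change was −1.95 ± 0.47, 3.86-fold lower (95% confidence interval −3.09 to −0.81, adjusted p = 0.0443). The call was lost without control 1 (adjusted p = 0.0977), control 2 (0.121), control 3 (0.146), cKO 1 (0.0610) or cKO 3 (0.117). Without cKO 2 the change was −2.44 (adjusted p = 0.00566), without control 3 and cKO 2 it was −2.25 (0.0185), and with the hepatocyte and erythroid covariate −1.98 (0.00649). Among the cKO arrays Abcb11 was highest where the hepatocyte list was highest, cKO 2. On control 2, where that list averaged 7.52, close to cKO 1 and cKO 3, Abcb11 was at 10.53, above cKO 1 and cKO 3. The part of hepatocytes in the levels of Abcb11 was not tested. With a trended and robust eBayes Abcb11 did not pass (adjusted p = 0.102).

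Abcb4, which moves phosphatidylcholine into bile across the same hepatocyte membrane, did not pass. It stood at 6.68, 6.5 and 6.96 on the controls, and at 6.46, 8.42 and 6.64 on the cKO arrays. Only cKO 2 stood out, and the change was 0.46 ± 0.51 (adjusted p = 0.630). Without control 3 and cKO 2 it was −0.04. Abcb4 lies beside Abcb1b and Abcb1a, and on cKO 1 and cKO 3, where both of those genes were above all controls, Abcb4 was within the range of the controls or below it.

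Of the members in the mitochondrial membrane, Abcb6 rose. Abcb6 is a porphyrin transporter that has also been placed in lysosomes and the plasma membrane. Its levels were 8.87, 8.93 and 9.07 on the controls, and 9.55, 9.82 and 9.35 on the cKO arrays, with no overlap and cKO 2 highest. The change was 0.62 ± 0.13, or 1.53-fold (adjusted p = 0.0295). The call was lost without control 1 (adjusted p = 0.0983), control 2 (0.102), control 3 (0.0658) or cKO 1 (0.0726), and at 0.0539 without control 3 and cKO 2. The change was 0.49 without cKO 2 and 0.61 with the hepatocyte and erythroid covariate.

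Abcb8, a mitochondrial member tied to iron export and potassium transport, ran the other way, at 9.79, 9.80 and 10.06 on the controls, and 9.60, 9.46 and 9.70 on the cKO arrays. The groups did not overlap, but the change of −0.30 ± 0.11 did not pass (adjusted p = 0.142). Abcb10, which supports heme synthesis in red cell precursors, had levels of 9.30, 9.18 and 9.46 on the controls, and 8.93, 10.23 and 8.68 on the cKO arrays. It was highest on cKO 2, where the erythroid list was highest, and lowest on the other 2 cKO arrays, with a change of −0.03 ± 0.39 (adjusted p = 0.972). Without control 3 and cKO 2 that change was −0.44 (adjusted p = 0.128). The part of erythroid cells in these levels was not tested.

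Abcb9, a lysosomal peptide transporter, and Abcb5, a multidrug type member known from melanocytes, had changes of −0.13 ± 0.079 and −0.04 ± 0.079 (adjusted p = 0.365 and 0.781). Abcb5 was the only member with 2 probe sets, and the dimmer one changed by −0.09. In subfamily B as a whole 3 of 9 members rose (5.52% of all genes did) and 1 fell (7.42%), with a median change of −0.03.

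Subfamily D holds the importers of fatty acyl-CoA into peroxisomes and a lysosomal member. Under limma 0 of the 3 passed (12.9% of all genes did), and 1 had an unadjusted p under 0.05 (26.6%). Abcd4, which passes vitamin B12 (cobalamin) out of lysosomes, stood at 9.21, 9.33 and 9.29 on the controls, and at 9.01, 8.64 and 8.92 on the cKO arrays. The groups did not overlap, and the change of −0.42 ± 0.11 missed the threshold (adjusted p = 0.0588). It passed with log2(value + 32) (adjusted p = 0.0467), with dim genes left out, array weights, a trended and robust eBayes, and the hepatocyte and erythroid covariate (0.0256), but in none of the 6 fits with 1 array left out (adjusted p up to 0.170). Nor did it pass with quantile normalization (0.109), median centring (0.0907), a replicate block (0.146) or without control 3 and cKO 2 (0.176). Abcd3, the abundant peroxisomal membrane protein, was at 10.36, 10.52 and 10.65 on the controls, and 10.45, 10.59 and 10.59 on the cKO arrays, a change of 0.03 ± 0.098 whose 95% confidence interval ran from −0.20 to 0.27. Abcd2, a peroxisomal importer with a preference for polyunsaturated chains, was at 6.29 to 7.21 on the controls, 9.16 on cKO 2, and 6.52 and 6.09 on the other cKO arrays.

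None of the 15 members of subfamily A passed under limma, where 12.9% of all genes did. An unadjusted p under 0.05 was reached by 2 (26.6% of all genes), and the median change was 0.03. Abca5, a lysosomal lipid transporter, came closest, at 7.47, 7.45 and 7.91 on the controls, and 7.89, 8.15 and 8.10 on the cKO arrays. Control 3 lay just above cKO 1, so the groups overlapped. The change of 0.44 ± 0.15 did not pass (adjusted p = 0.116) except without control 3 (0.59, adjusted p = 0.0373). Abca17, whose gene borders Abca3, was lower on all cKO arrays, at 6.55, 6.55 and 6.60 against 6.85, 6.77 and 6.72, a change of −0.21 ± 0.071 (adjusted p = 0.111).

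Abca3, the phospholipid transporter of lung lamellar bodies, stood at 10.62 to 10.71 on the controls, and at 10.66, 10.06 and 10.39 on the cKO arrays, a change of −0.28 ± 0.15 (adjusted p = 0.302). Abca7, a phospholipid exporter also found in macrophages, changed by 0.24 ± 0.17 (adjusted p = 0.449), with cKO 2 highest at 9.67. Abca14, whose gene lies beside Abca15 and Abca16, was lower on all cKO arrays (6.84 to 6.95 against 6.98 to 7.30), but its change of −0.19 ± 0.11 did not pass (adjusted p = 0.329). The remaining members outside the cluster described next, Abca2, Abca4 (the retinal transporter), Abca12 (the lipid transporter of skin), Abca13, Abca15 and Abca16, had changes from −0.12 to 0.11, all with overlapping groups.

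A run of neighbouring A genes, Abca8b, Abca8a, Abca9, Abca6 and Abca5 in that order, showed more than 1 pattern across the arrays. Abca8b stood at 6.44, 6.0 and 7.60 on the controls, and at 6.58, 9.86 and 6.60 on the cKO arrays. Abca8a stood at 6.38, 6.57 and 7.26, and at 6.81, 9.26 and 6.55. Abca6 stood at 5.77, 5.38 and 5.96, and at 5.74, 8.24 and 5.15. These 3 genes were far above the other arrays on cKO 2 and highest among the controls on control 3, whereas Abca9, in their midst, ranged only from 7.16 to 7.42 over the 6 arrays. With both of those arrays left out the changes of Abca8b, Abca8a and Abca6 were 0.37, 0.21 and −0.13 (adjusted p = 0.289, 0.472 and 0.824). With the hepatocyte and erythroid covariate Abca8b passed (0.92, adjusted p = 0.0249).

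Several members were higher on cKO 2 than on the other cKO arrays. For 9 of the 43 genes cKO 2 exceeded the mean of cKO 1 and cKO 3 by more than 1 on the log2 scale, or 20.9% of the members against 3.5% of all genes. They were Abca8b (by 3.27), Abcd2 (2.86), Abca6 (2.80), Abca8a (2.58), Abcb4 (1.87), Abcg4 (1.77), Abcb11 (1.49), Abcb10 (1.43) and Abcg3 (1.16). In the hepatocyte list this gap was above 1 for 10 of 10 genes with a median of 4.90, in the erythroid list for 6 of 6 (median 3.90), in the immune list for 10 of 10 (median 1.94) and in the endothelial list for 5 of 10 (median 1.03). It was above 1 for 0 of the 10 epithelial and 0 of the 10 mesenchymal genes. The part of these cell types in the 9 levels was not tested. None of the 7 plasma membrane exporters of drugs and conjugates was in this set: their gaps ran from −0.28 for Abcb1b to 0.27 for Abcc4.

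**Figure D3:**
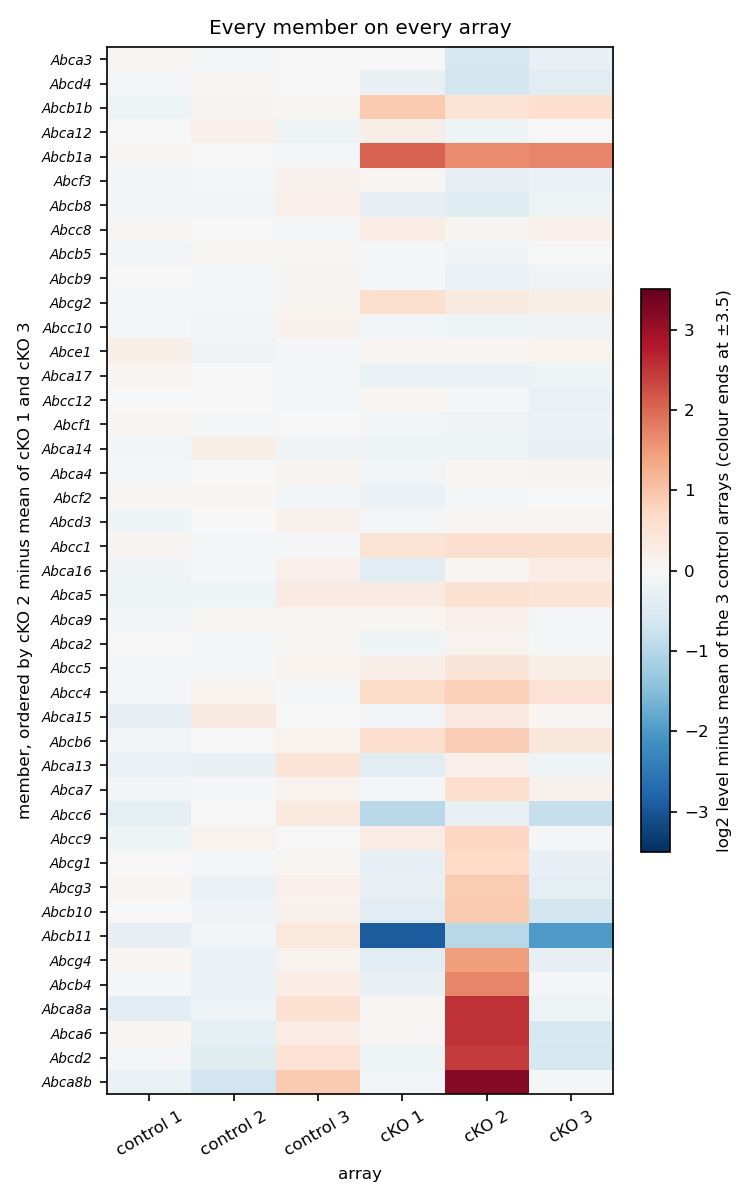
Log2 level minus the mean of the 3 control arrays (colour, red above and blue below) for the 43 ABC genes (rows, ordered by how far cKO 2 exceeds the mean of cKO 1 and cKO 3) on the 6 arrays (columns). The lowest rows, from Abcg4 to Abca8b, are reddest on cKO 2, Abcb1a is red on all 3 cKO arrays, and Abcb11 is blue on all 3.

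In subfamily G, 0 of 4 passed under limma (12.9% of all genes did) and 1, Abcg2, had an unadjusted p under 0.05 (26.6%). Abcg1, which exports sterol from macrophages and other cells, had a change of 0.04 ± 0.27 (adjusted p = 0.941), at 8.09 to 8.23 on the controls and 7.88, 8.86 and 7.89 on the cKO arrays. Abcg4, its close relative of the nervous system, and Abcg3 followed the same course, with 9.03 and 7.53 on cKO 2 against at most 7.70 and 6.82 on any other array. Without control 3 and cKO 2 the changes of Abcg1, Abcg4 and Abcg3 were −0.25, −0.26 and −0.20, and none passed.

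None of the cytosolic members passed, where 12.9% of all genes did. Abce1, the ATPase that splits ribosomes for recycling, stood at 11.02, 10.69 and 10.75 on the controls, and at 10.88, 10.89 and 10.95 on the cKO arrays, a change of 0.09 ± 0.10 (adjusted p = 0.659). Abcf1, a partner of the initiation factor eIF2, and its relatives Abcf2 and Abcf3 changed by −0.15 ± 0.074, −0.08 ± 0.093 and −0.15 ± 0.12. None of the 4 had an unadjusted p under 0.05 under limma (26.6% of all genes did), and their 95% confidence intervals lay between −0.45 and 0.34. Abcf1 alone had groups without overlap, at 9.91 to 10.01 on the cKO arrays and 10.05 to 10.18 on the controls.

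The sulfonylurea receptors, regulatory subunits of ATP-sensitive potassium channels, did not pass. Abcc8, the form of endocrine cells and neurons, was above all controls on every cKO array (8.25, 8.09 and 8.16 against 8.04, 8.01 and 7.91), a change of 0.18 ± 0.079 (adjusted p = 0.210). Abcc9, the form of smooth and cardiac muscle, changed by 0.31 ± 0.20 (adjusted p = 0.396), with cKO 2 highest at 8.04. Both Abcc9 and the mesenchymal list were above all controls on cKO 1 and cKO 2, but the list was highest on cKO 1. Among the controls Abcc9 was highest on control 2, where the list was lowest. The part of mesenchymal cells was not tested. Neither of the pore genes Kcnj8 and Kcnj11 passed under limma, nor did either have an unadjusted p under 0.05. Abcc6, a liver and kidney exporter needed for ATP release, stood at 9.21, 9.54 and 9.90 on the controls, and at 8.57, 9.28 and 8.73 on the cKO arrays. cKO 2 overlapped the controls, and the change of −0.69 ± 0.24 did not pass (adjusted p = 0.123). It passed without cKO 2 (−0.90, adjusted p = 0.0393) and with the hepatocyte and erythroid covariate (−0.71, 0.0436). Abcc12 changed by −0.07 ± 0.095 (adjusted p = 0.716).

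**Figure D4:**
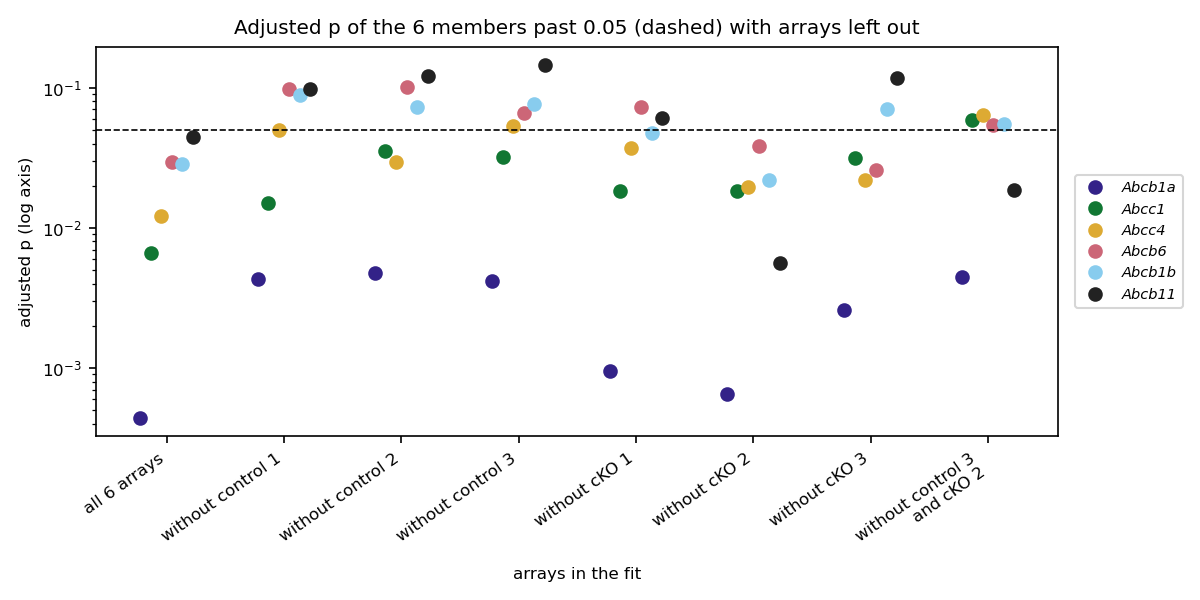
Adjusted p (limma, log axis) of the 6 ABC genes that passed, from the fit on all 6 arrays and with 1 array, or control 3 and cKO 2 together, left out; the dashed line is 0.05. Abcb1a stays under the line in every fit, Abcc1 in every fit with 1 array left out, and Abcb1b, Abcb6 and Abcb11 cross it in several.

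Genes that work with these transporters were described by counts. Of 11 measured regulators of drug and lipid handling 1 rose and 1 fell, where 5.52% and 7.42% of all genes did. Pparg, the receptor behind fat cell formation, rose by 1.5 ± 0.15 (adjusted p = 0.00163, and 0.00242 without control 3 and cKO 2), and Nr1h3, the liver X receptor alpha, changed by −0.75 ± 0.17 (adjusted p = 0.0335), a call that held without cKO 2 and in none of the other fits with 1 array left out (adjusted p up to 0.115), and that passed without control 3 and cKO 2 (0.0125). The xenobiotic receptor gene Nr1i2, singled out after its values were seen as a known activator of Abcb1a, stood at 10.66 to 10.78 on the controls and 10.29 to 10.48 on the cKO arrays, a change of −0.29 ± 0.085 that did not pass (adjusted p = 0.0751). Its groups did not overlap. Of 14 measured uptake carriers of organic ions and nucleosides 4 fell (7.42% of all genes did) and 0 rose (5.52%), with a median of −0.27: Slco2a1, a prostaglandin carrier (−0.61 ± 0.089), Slc28a2 and Slc28a1, nucleoside carriers (−0.65 ± 0.12 and −0.36 ± 0.085), and Slc22a5, the carnitine carrier (−0.54 ± 0.12). That count was 1 without any 1 control array and 2 without cKO 2 or cKO 3, and Slco2a1 alone passed in all 6 of these fits. Without control 3 and cKO 2 Slc28a2 passed (adjusted p = 0.0406), whereas Slco2a1 (0.0537), Slc22a5 (0.175) and Slc28a1 (0.174) did not.

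Of 17 measured genes of peroxisome assembly and beta-oxidation, the partners of subfamily D, 5 fell (7.42% of all genes did) and 0 rose, with a median change of −0.27 against −0.01 for all genes. Pex5, the import receptor, fell by 0.58 ± 0.071 (adjusted p = 0.0037) and passed in all 6 fits with 1 array left out. Pex14, Pex3 and Hsd17b4 followed with −0.50 ± 0.10, −0.42 ± 0.089 and −0.57 ± 0.12, and the last of the 5, Pex16, outside the rule for named genes and named after its values were seen, with −0.60. The count was 1 without control 2 or cKO 3, 2 without control 3, and 3 without cKO 1 or cKO 2. Without control 3 and cKO 2 Pex5 passed (adjusted p = 0.0349), but Pex14 (0.0708), Hsd17b4 (0.0786), Pex3 (0.150) and Pex16 (0.152) did not. Of 16 measured genes of iron-sulfur cluster and heme synthesis 1 fell, the mitochondrial iron importer Slc25a28 (−0.80 ± 0.085, adjusted p = 0.0022, and 0.0154 without control 3 and cKO 2), and 0 rose; without cKO 2, 3 fell. In that list cKO 2 exceeded the mean of the other cKO arrays by over 1 for 5 of the 16 genes.

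Of 17 measured genes of ribosome recycling and translation initiation, the setting of Abce1 and Abcf1, 3 rose and 0 fell (median 0.11). The share that passed, 17.6%, was near the 12.9% of all genes. The genes that rose were Eif2ak4, the amino acid sensing kinase GCN2 (0.78 ± 0.11, adjusted p = 0.00715), Eif2b1 (0.56 ± 0.068, adjusted p = 0.0037) and Eif2s2 (0.29 ± 0.068, adjusted p = 0.0413), the last lost on leaving out any 1 array (adjusted p up to 0.136). Eif2ak4 and Eif2b1 passed without control 3 and cKO 2 (0.0348 and 0.0285) and Eif2s2 did not (0.169). Of 11 measured genes of cobalamin handling, the setting of Abcd4, 0 passed under limma (12.9% of all genes did). An unadjusted p under 0.05 was reached by 4 (26.6% of all genes), and the median was 0.04.

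Among 8 ABC genes that the rule leaves out or that carry other names, 4 fell and 1 rose, where 7.42% and 5.52% of all genes did. Abcg8 and Abcg5, whose products together export sterol, changed by −3.17 and −3.02, Tap1 and Tap2, which load peptides for antigen display, by −0.78 and −0.49, and Cftr, the chloride channel of this family, by 1.18. Abcc2 changed by −0.56 (adjusted p = 0.0603), Abcc3 by 0.02 and Abca1 by 0.15, and these 3 did not pass. Tap2 kept its call only in the fit without cKO 2, among those with 1 array left out (adjusted p up to 0.122 in the others). Tap1 lost its call without control 3 and cKO 2 (0.0761), while Tap2 (0.0328), Cftr (0.0135), Abcg5 (0.00142) and Abcg8 (0.00149) kept theirs.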

How the data were processed

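Total RNA from 6 samples was labelled with biotin and hybridised to whole-transcript Affymetrix Mouse Gene 1.0 arrays, per the labels. The authors made the deposited log2 values with dChip, per the series text. The version, background correction, normalization, expression model and log base were not stated there, and the range of 0 to 14.25 was read as log2. Array medians lay between 7.73 and 7.84, with centring unknown. No detection calls were used, so low levels may be background.

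Gene names came from the platform annotation: of 35512 probe sets 21789 had 1 gene, 1621 several and 12102 none. Symbols were looked up in RefSeq (GRCm38.p6; 21698 matched, 91 did not, 0 changed). The probe set with the highest mean was kept per gene. All genes were fitted with limma 3.58.1 under R 4.3.3 by lmFit and eBayes, without filter or covariate, and two-sided p-values were adjusted by Benjamini-Hochberg. The fit was tested on simulated data. No list was given a set test. Per the rule for named genes, every member, Gata4 and Gata6, up to 4 genes past the threshold per related list and the 8 further ABC genes are named. The members and lists were chosen with earlier results of these data known. Promoter sequences are RefSeq's, in GRCm38.p6, with windows for 34 members. Alternatives were quantile normalization, median centring, log2(value + 32), filters on dim genes, trended and robust eBayes, array weights, a replicate block, the mean of all probe sets, arrays left out and a hepatocyte and erythroid covariate. The labels give no batch.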

Additional observations from a re-analysis of the deposited data

How the results depend on the processing

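The change of Abcb1a kept its direction and its call under every alternative tried, from 1.68 to 1.88. The difference between the changes of Abcb1a and Abcb1b kept its direction in each (1.07 to 1.29). Rises among members, 5 in the report, numbered 3 with genes under the median level left out (17 members remained), 3 to 5 with 1 array left out, and 1 without control 3 and cKO 2. Falls, 1 in the report, numbered 2 with log2(value + 32), array weights or either filter on dim genes, 3 with the hepatocyte and erythroid covariate, and 0 to 2 with 1 array left out. With the number in the titles as a replicate block 3 members rose and 0 fell, where 1449 of all genes passed instead of 2580; Abcb1a, Abcc1 and Abcc4 kept their calls. Same-numbered arrays did not deviate together (r = −0.015, −0.42 and −0.18 over genes), but this cannot settle whether the numbers mark a pairing. Deviations from a group mean cancel out within each group, so these r values are tied to each other. Control 3 and cKO 2, the arrays with the most hepatocyte signal, had r = 0.31, and control 2 had r = 0.36 with cKO 1 and 0.31 with cKO 3. A sign was compared only where a change passed: up to 10 of the 37 members that did not pass changed sign in a fit (without cKO 2). Abca1, outside the members, turned from 0.15 to −0.74 without control 3 and cKO 2 (adjusted p = 0.0148), where cKO 2 had the highest level. No probe set could be called above background, and 3 arrays per group limit the precision.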
